A study of Rattus norvegicus with 59 samples.

Results

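Nuclear RNA of heart muscle cells was compared between treadmill-trained and untrained rats, in 8 of the 59 samples of the series. They were chosen by their labels as the 4 exercise and the 4 control libraries of one deposited count table. The rats of both groups were male Sprague Dawley animals of about 280 g at the start, so that females were not studied. Trained rats ran intervals on a treadmill inclined by 25 degrees for 6 weeks, on 6 days a week, with 12 intervals of 8 min at a starting speed of 15 m/min and 2 min of rest between them. Control rats were of the same strain and starting weight and were not put on the training protocol. In both groups nuclei from the left ventricle were sorted for PCM1, a centriolar satellite protein that gathers at the envelope of cardiomyocyte nuclei, so that the comparison is of sorted nuclei and not of whole tissue. The label of cardiomyocyte nuclei could be checked only against the deposited table of sorted fractions described below. The comparison addresses growth of the heart under exercise, which the series sets beside growth under pressure overload. The labels do not say in words that each library is a separate rat, so the p-values reflect how these libraries vary among themselves, which may be partly technical.

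Endurance training enlarges the heart in a way that keeps its function and recedes when training stops, and is called physiological growth. It is known to involve insulin-like growth factor signalling and a raised capacity for fat oxidation. Pathological growth under pressure overload, by contrast, brings back genes of the fetal heart such as natriuretic peptides. RNA taken from nuclei holds newly made and partly unspliced transcripts, and so follows transcription more closely than RNA of the whole cell does. The deposited tables identify genes by Ensembl IDs with no symbol. Of the 22938 IDs, 0 were found in the reference gene table of 47357 rat genes used here, so no ID could be given a gene name. Lists of sarcomere, metabolic, growth, clock and cell type marker genes, which had been written as symbols, could therefore not be applied. Genes below are described by groups that the files themselves define, and 2 IDs in each direction are followed through every library.

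Total counts were 4.17, 2.14, 7.60 and 5.83 M in trained replicates 1 to 4, against 7.80, 1.82, 5.20 and 3.60 M in control replicates 1 to 4. Between 13061 and 14683 genes lay above the stored minimum of 1 count in trained libraries, against 13057 to 14395 in control libraries. Replicate 2 was the shallowest library of both groups and had the fewest such genes. The 10 most counted genes of each library took 11.8 to 13.5% of its counts in trained rats and 11.8 to 12.2% in control rats. The 12 pairs of libraries within a group all differed by more than counting error: over genes with a summed count above 20 and at most 750, the squared difference was 2.70 to 5.52 times its counting variance. No pair was therefore a repeat of one library. A library stood far from the other 3 of its group (by Dixon's criterion at 95%) in 0.777% of genes (control replicate 4) to 1.78% (control replicate 2), the last being the shallowest library. About 1 in 20 groups of 4 meets this criterion by chance, with any of the 4 libraries apart, so shares of about this size arise by chance.

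Gene by gene, no difference between trained and control hearts passed the threshold in edgeR after adjustment for all genes tested, which does not show that none differed. Of 10815 genes with enough counts to test, 0 (0.0%) passed an adjusted p of 0.05 in edgeR's quasi-likelihood test, and the lowest adjusted p was 0.0709. At an unadjusted p under 0.05, 387 genes were higher in trained rats (3.58% of those tested) and 374 lower (3.46%), together 7.04%. Each of the other steps of p of that width, up to 1, held 4.22 to 5.83% of genes. The 4 trained libraries all lay above the 4 control libraries in 212 genes (1.96%) and all below them in 211 (1.95%). DESeq2 called 25 genes higher and 12 lower at an adjusted p under 0.05, limma-voom called 0, and edgeR with only genes of at least 50 counts called 1. In edgeR the unadjusted p was under 0.05 for all 37 genes called by DESeq2, and the libraries of the groups were apart in 35 of them. Their highest adjusted p in edgeR was 0.422. Leaving out control replicate 2 gave 1 call in edgeR, of a gene that is none of the 4 IDs described below.

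The differences were small where they could be measured well. The median size of the log2 fold change (trained over control) was 0.14 over all genes tested, and its median standard error was 0.18. Beyond a doubling there were 33 genes higher in trained rats (0.305%) and 47 lower (0.435%), with median levels of 9.90 and 8.19 CPM (counts per M counts of the library, not corrected for gene length). In 30 of the 33 and 38 of the 47 the unadjusted p was under 0.05, and the libraries of the groups did not overlap in 13 and 14 of them. These genes also varied more between libraries of one group: the median coefficient of variation beyond counting error was 31.6% and 41.0% for them, against 15.6% over all genes tested. In 54.6% of genes the whole 95% interval of the fold change, taken from the fit gene by gene, lay within a 1.5-fold difference in either direction. Among the 7556 genes with a mean of at least 10 CPM this share was 74.3%, and for an interval within a 2-fold difference it was 96.0%. The interval lay wholly beyond 1.5-fold in 17 genes and wholly beyond 2-fold in 4. For most well counted genes, then, differences beyond 2-fold lay outside the interval, while the bounds on weakly counted genes were loose.

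**Figure D1:**
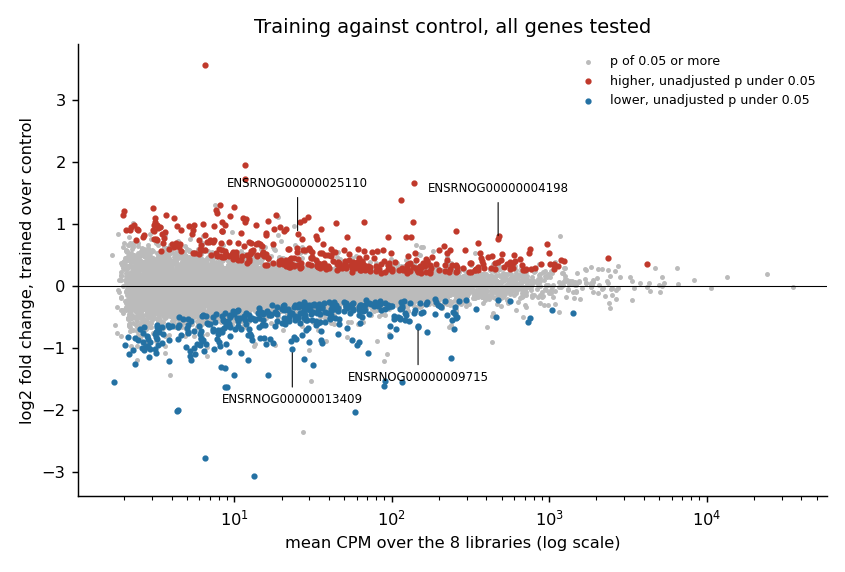
Log2 fold change of trained over control rats (vertical axis) against mean CPM over the 8 libraries (horizontal axis, log scale) for the 10815 genes tested. Red points are the 387 genes higher and blue points the 374 genes lower in trained rats at an unadjusted p under 0.05; none passed the adjusted threshold in edgeR, and the cloud narrows as counts increase.

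The best counted genes leaned to the trained side. With the genes ranked into 5 equal classes of 2163 by mean CPM, the class with the highest level (84.2 CPM and above) held 129 genes higher in trained rats at an unadjusted p under 0.05 and 65 lower, or 5.96% and 3.01% of its genes. Over all genes tested these shares were 3.58% and 3.46%. In the class with the lowest level (up to 6.27 CPM) the numbers were 51 higher and 70 lower. The median log2 fold change was 0.025 in the best counted class and -0.050 in the least counted one, with -0.0075 over all genes tested. In the best counted class the higher genes outnumbered the lower ones under each of the 17 alternative settings, libraries left out included. All of these settings reuse the same libraries, so their agreement is not independent support. The numbers of higher against lower genes were 160 against 74 without control replicate 3 and 83 against 58 without control replicate 2. Without control replicate 4 they were 84 against 64. With all 16 nuclear RNA libraries in one fit they were 69 against 46. Among the 100 genes of highest mean CPM, 64 had a positive fold change, 5 were higher at an unadjusted p under 0.05 and 1 was lower.

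The 2 IDs with the lowest p on the trained side were ENSRNOG00000004198 and ENSRNOG00000025110. ENSRNOG00000004198 was at 595.5, 530, 601 and 660 CPM in trained replicates 1 to 4, against 395, 297, 354 and 363 CPM in control replicates 1 to 4. The lowest trained library thus lay above the highest control library. It averaged 596 ± 53.2 CPM over the trained libraries and 352.5 ± 40.8 CPM over the control libraries (SD, n = 4 each). Its log2 fold change was 0.76 (SE 0.12, 95% interval 0.50 to 1.01) with an edgeR adjusted p of 0.158. ENSRNOG00000025110 was counted about as often as the middle of all genes tested, at 32.4, 27.7, 39.4 and 29.9 CPM in trained libraries, against 18.0, 16.4, 20.0 and 18.0 CPM in control libraries. Trained replicate 3 was the highest of the 8, and the groups did not overlap. Its log2 fold change was 0.84 (SE 0.14, 95% interval 0.52 to 1.15), again with an edgeR adjusted p of 0.158.

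ENSRNOG00000013409 and ENSRNOG00000009715 had the lowest p on the control side. ENSRNOG00000013409 was at 14.4, 14.6, 17.3 and 15.0 CPM in trained replicates 1 to 4, against 27.3, 32.8, 32.8 and 32.8 CPM in control replicates 1 to 4. These values rest on 30 to 131 counts in trained and 60 to 215 counts in control libraries. Every trained library was well under the lowest control library. The log2 fold change was -1.02 (SE 0.13, 95% interval -1.31 to -0.72), which is 0.494 times the control level, and the edgeR adjusted p was 0.0709. ENSRNOG00000009715 was at 104, 116, 117.5 and 118 CPM in trained libraries, against 179, 212, 165.5 and 164 CPM in control libraries. Its trained libraries lay close together, while control replicate 2, the shallowest library of the group, was the highest. The log2 fold change was -0.66 (SE 0.11, 95% interval -0.89 to -0.42; edgeR adjusted p = 0.158). With each library left out in turn, the fold changes of the 4 IDs kept their sign, and the edgeR adjusted p ranged from 0.0734 to 0.338. DESeq2 called all 4 (adjusted p of 5.35e-06 for ENSRNOG00000004198, 0.00302 for ENSRNOG00000025110, 9.02e-05 for ENSRNOG00000013409 and 0.000556 for ENSRNOG00000009715). In the edgeR fit of all 16 libraries the adjusted p was 0.694 for ENSRNOG00000004198, 0.393 for ENSRNOG00000025110, 0.167 for ENSRNOG00000013409 and 1.00 for ENSRNOG00000009715. That fit estimated the spread with the libraries of the pressure overload experiment included, which are described below. Its log2 fold changes for the 4 IDs, in that order, were 0.76, 0.84, -1.02 and -0.65, close to those above. For ENSRNOG00000013409 the adjusted p was 0.0499 in edgeR when only genes of at least 50 counts were kept. These IDs were picked for their low p, so that the absence of overlap, which 3.91% of all genes tested share, is a description of them.

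**Figure D2:**
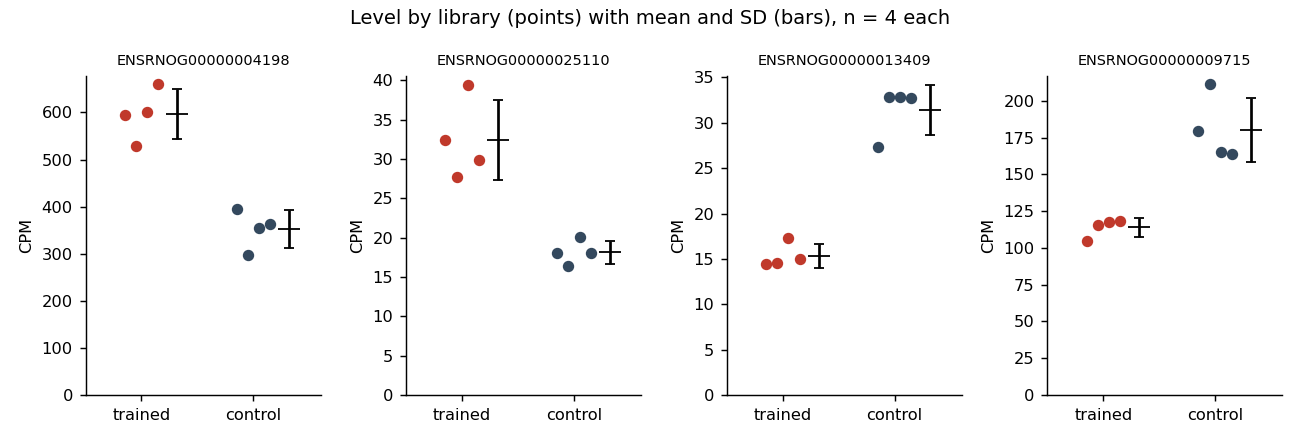
CPM of the 4 IDs with the lowest p in each direction, by library: trained rats in red, control rats in dark blue, with the mean and SD of 4 libraries as bars. In each of the 4 panels the trained points lie on one side of all control points.

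The same IDs were then read in the other deposited tables. In the authors' deposited table of PCM1-positive against PCM1-negative nuclei, ENSRNOG00000009715 was higher in PCM1-positive nuclei (a log2 fold change of -2.34, coded as negative over positive nuclei, with a false discovery rate of 2.28e-10). The other IDs did not pass there, at -0.50 for ENSRNOG00000004198, -0.54 for ENSRNOG00000025110 and -0.60 for ENSRNOG00000013409, with false discovery rates of 0.469, 0.121 and 0.102. In the authors' deposited table of group values for training all 4 were listed at a false discovery rate under 0.05. The differences there, trained minus control in log2 RPM (reads per M), were 0.71 for ENSRNOG00000004198, 0.74 for ENSRNOG00000025110, -1.17 for ENSRNOG00000013409 and -0.62 for ENSRNOG00000009715.

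Genes of cardiomyocyte nuclei and genes of the other nuclei of the ventricle were told apart by the authors' deposited table of PCM1-positive against PCM1-negative nuclei. Fibroblasts, endothelial cells, mural cells and immune cells are the main sources of PCM1-negative nuclei in the heart. Of the genes enriched in PCM1-positive nuclei in that table (false discovery rate under 0.05), 3026 of 3084 could be tested for training. Of these, 184 were higher in trained rats at an unadjusted p under 0.05 (6.08%) and 116 were lower (3.83%), with a median log2 fold change of 0.030. Among the 593 tested genes that exceeded an 8-fold enrichment there, 49 were higher (8.26%) and 26 lower (4.38%), with a median of 0.029. Over all genes tested the shares were 3.58% and 3.46% and the median -0.0075. The groups of libraries did not overlap for 88 PCM1-positive-enriched genes on the higher and 60 on the lower side (2.91% and 1.98%, against 1.96% and 1.95% of all genes tested). The higher genes outnumbered the lower ones under each of the 17 alternatives, which reuse the same libraries. For each library, the median deviation of these genes in log2 CPM from their mean over the 8 libraries was taken. It was -0.017, 0.022, 0.053 and 0.026 in trained replicates 1 to 4. In control replicates 1 to 4 it was -0.044, -0.014, 0.045 and -0.041, so the groups overlapped. Genes enriched in PCM1-positive nuclei were also better counted, with a median of 52.6 CPM, against 22.7 CPM over all genes tested. The part of counting depth in these shares was not tested.

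Genes enriched in PCM1-negative nuclei had more members lower than higher in trained rats. Of 3551 such genes, 2470 could be tested, 58 of which were higher in trained rats at an unadjusted p under 0.05 (2.35%) and 98 lower (3.97%), with a median log2 fold change of -0.068. Over all genes tested the shares were 3.58% higher and 3.46% lower, so the lower share of the list was near that of all genes. Together the genes of the list were 6.32%, beside 7.04% of all genes tested, and the difference from other genes was not tested. Of the 746 tested genes that exceeded an 8-fold enrichment there, 15 were higher (2.01%) and 20 lower (2.68%), with a median of -0.14. Both shares were under those of all genes tested. The 98 became 192 without control replicate 3 and 61 without trained replicate 3, and in the last case 65 genes were higher, so that the order of higher and lower was turned round. These genes had a median of 8.70 CPM, against 22.7 CPM over all genes tested. The part of counting depth in these shares was not tested either. Their median deviation, taken as above, was 0.10, -0.064, -0.12 and 0.0082 in trained replicates 1 to 4. In control replicates 1 to 4 it was 0.091, 0.021, -0.11 and 0.13, so the groups overlapped. The 5115 genes that did not differ between the fractions had 133 higher and 144 lower in trained rats (2.60% and 2.82%), with a median of -0.0044. In bulk libraries of sorted nuclei, fewer nuclei of a type and less RNA per nucleus cannot be told apart.

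The share of counts from PCM1-negative-enriched genes served as an index of how much RNA of other cells each sorted library held. This share also contains any counts of these genes from cardiomyocyte nuclei. It further contains the stored minimum of 1 count per gene, which weighs most in shallow libraries. For the 1319 genes with over 8-fold enrichment in PCM1-negative nuclei it was 0.865, 0.611, 0.614 and 0.758% in trained replicates 1 to 4, against 0.956, 0.728, 0.536 and 0.944% in control replicates 1 to 4. The groups overlapped, and control replicate 3 had the lowest share of all. Exact binomial 95% intervals of these shares reached from 0.601 to 0.622% in trained replicate 2 and from 0.716 to 0.740% in control replicate 2, the 2 shallowest libraries, and cover counting error only. The difference of the means, trained minus control, was -0.079 percentage points (exact two-sided permutation test, p = 0.514, smallest possible p 0.0286). The 604 genes with over 8-fold enrichment in PCM1-positive nuclei took 32.04, 31.2, 31.5 and 32.6% of counts in trained libraries, against 30.5, 32.03, 31.9 and 31.0% in control libraries (exact permutation test, p = 0.343). The spread was far narrower than in the surgery experiment, where shares of PCM1-negative-enriched genes were between 0.859 and 4.45% in banded and between 0.658 and 4.32% in sham libraries. The labels tie control rats 1 and 5 to the table of fractions, so that it may share a library with the control group.

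**Figure D3:**
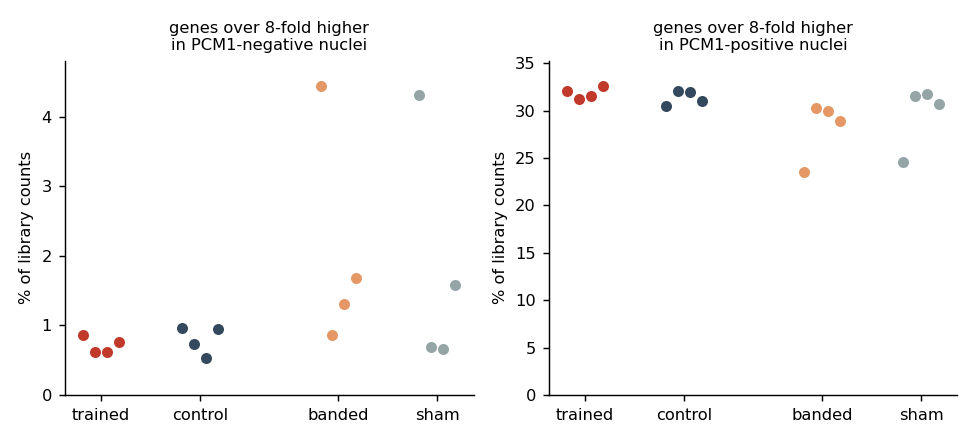
Share of each library's counts, in percent, from the 1319 genes with over 8-fold enrichment in PCM1-negative nuclei (left) and the 604 with over 8-fold enrichment in PCM1-positive nuclei (right); each point is a library. Trained and control libraries overlap on both sides, with 0.611 to 0.865% and 0.536 to 0.956% on the left, while 1 banded and 1 sham library stand above 4%.

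Hardly any gene was found in one group alone. Of the 22938 genes, 6304 never exceeded the stored minimum of 1 count in the 8 libraries, and 11806 exceeded it in all 8. In 11 genes all trained libraries exceeded the minimum and all control libraries were at it, with at most 10 counts in a library. The reverse was true of 5 genes, with at most 5 counts. None of these genes had 10 counts in every library of the group where it was found (0 in either direction).

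The authors' deposited table for training listed many more genes. In the authors' deposited table, 146 genes were higher in trained rats at a false discovery rate under 0.05 (0.636% of its 22938 genes) and 145 lower (0.632%), together 1.27%. All 291 were among the genes tested here, of which they made up 2.69%. The sources used here do not say how the rate was computed. The listed genes were well counted: their median was 254 CPM, against 22.7 CPM over all genes tested, and 240 of the 291 fell in the best counted class, where they made up 11.1% of genes. Of the 100 genes of highest mean CPM, 31 were listed in the authors' deposited table. The median difference between the authors' group values was 0.36 log2 RPM for the genes listed as higher and 0.41 for those listed as lower, and 65 of the 291 differed by less than 0.25. Fitted from the counts, the unadjusted p was under 0.05 in 83 of the 146 and 69 of the 145, and the edgeR p of listed genes reached 0.935. The libraries did not overlap in 43 of the 146 and 35 of the 145, while this held for 3.91% of all genes tested. The authors picked these genes on the same libraries, so the counts are a description.

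A rate of exactly 0 was given in the authors' deposited table to 20 genes, 19 of them lower in trained rats, with differences between 0.019 and 1.95 log2 RPM. Fitted from the counts, the unadjusted p was under 0.05 in 10 of the 20, and the groups of libraries did not overlap in 2. Among all 291 listed genes these shares were 52.2% and 26.8%, beside 7.04% and 3.91% of all genes tested. The median coefficient of variation beyond counting error was 20.3% for these 20, against 16.1% for all listed genes. Conversely, 46 of the 100 genes with the lowest p in edgeR were listed by the authors. These 100 had a median of 29.5 CPM and a median size of the log2 fold change of 0.80, and 52 were higher and 48 lower in trained rats. Of the 37 genes called by DESeq2, 31 were listed by the authors.

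Many listed genes were enriched in PCM1-positive nuclei, above all those with small differences. Of the 146 genes higher in trained rats in the authors' deposited table, 102 were enriched in PCM1-positive nuclei (69.9%) and 7 in PCM1-negative nuclei. Of the 145 lower genes, 75 were enriched in PCM1-positive nuclei (51.7%) and 9 in PCM1-negative nuclei. Of all 10815 genes tested, 3026 were enriched in PCM1-positive nuclei, and of the 761 genes with an unadjusted edgeR p under 0.05 it was 39.4%. Of the 24 listed genes with a difference of at least 1 log2 RPM, 6 were enriched in PCM1-positive and 6 in PCM1-negative nuclei (25.0% each). Both shares were near those of all genes tested, and the median level of the 24 was 51.5 CPM. Of the 65 with a difference under 0.25, 70.8% were enriched in PCM1-positive nuclei and 0 in PCM1-negative nuclei. The median level of the 65 was 723 CPM, and what counting depth contributes to these shares was not tested. Of the 746 tested genes with over 8-fold enrichment in PCM1-negative nuclei, 1 was listed, and these had a median of 5.03 CPM.

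**Figure D4:**
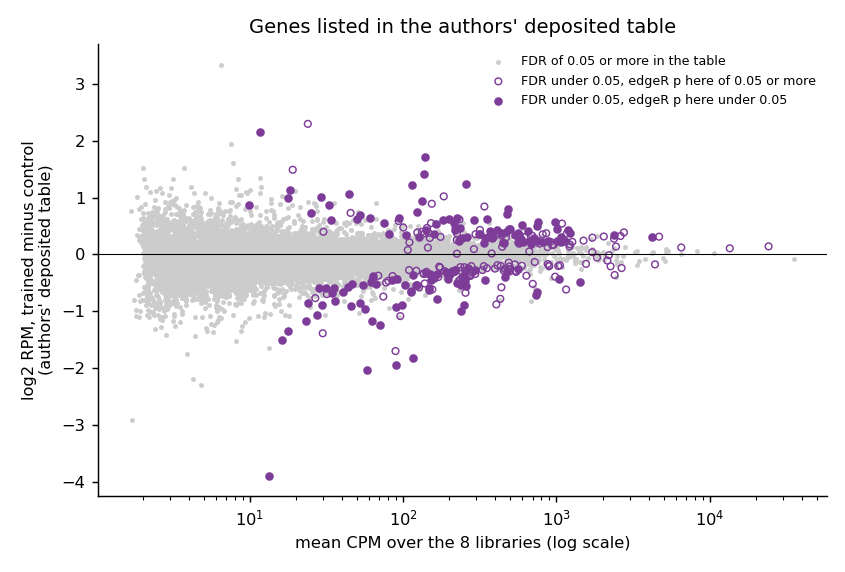
Difference between the authors' group values, trained minus control in log2 RPM (vertical axis), against mean CPM over the 8 libraries (horizontal axis, log scale). Purple marks are the 291 genes listed by the authors, filled for the 152 with an unadjusted edgeR p under 0.05; 240 of the 291 lie in the best counted of 5 classes of genes.

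Training was last set beside aortic banding, the other form of growth in the series. Banded rats of about 170 g at the start carried a suture tightened around the ascending aorta for 6 weeks and were retained with non-failing, enlarged hearts. Sham rats of that starting weight had the surgery without tightening. The 2 experiments share no library. Between sham replicates 2 and 3 the squared difference was 1.07 times the counting variance, against 2.70 to 28.2 times in the 23 other within-group pairs, so these 2 were counted as 1 sample. Banded libraries differed from sham in 1 gene of 12689 at an adjusted p under 0.05 in edgeR (0.00788%), and 1.84% of genes had an unadjusted p under 0.05. The median coefficient of variation beyond counting error was 25.7% in the surgery libraries over genes tested in both experiments.

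The 386 genes higher in trained rats at an unadjusted p under 0.05 had a median log2 fold change of 0.46 with training and of -0.0225 with banding (banded over sham), and 174 of them (45.1%) had a positive banding value. For the 373 genes lower in trained rats the medians were -0.52 with training and 0.0226 with banding, with 204 positive (54.7%). Both sets were picked by their p for training, so the size of their training medians follows from that choice. The banding values had no part in the choice. Over all 10800 genes tested in both, the banding median was -0.016 and 46.6% were positive. An unadjusted p under 0.05 for banding was reached by 8 of the 386 as higher and 3 as lower, and by 9 of the 373 as higher and 4 as lower, beside 103 higher and 80 lower of the 10800.

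**Figure D5:**
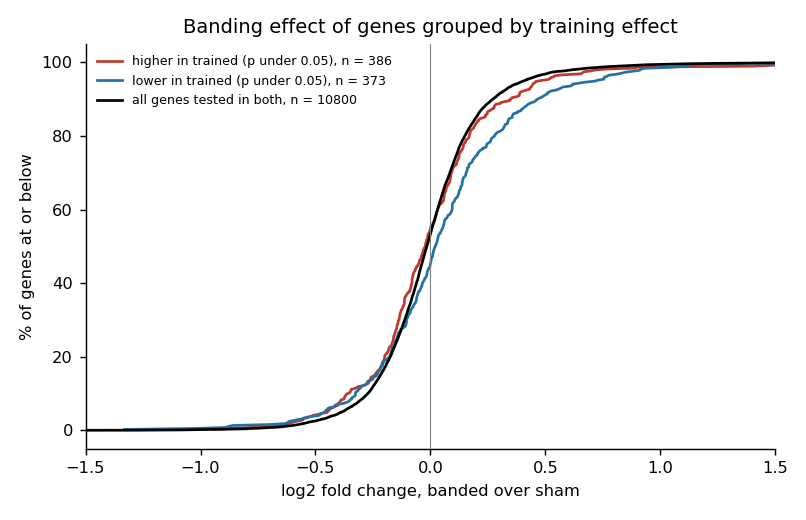
Cumulative share of genes, in percent (vertical axis), by their log2 fold change of banded over sham rats (horizontal axis), for genes higher (red, 386) or lower (blue, 373) in trained rats at an unadjusted p under 0.05 and for all 10800 genes tested in both experiments (black). The red and black curves run close together, with medians of -0.0225 and -0.016, and the upper part of the blue curve lies to the right, with a median of 0.0226.

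The difference of the training and the banding effect was tested in 1 fit of the 4 groups. One gene, ENSRNOG00000008356, passed an adjusted p of 0.05 among 12650 (1, or 0.00791%), and 488 (3.86%) had an unadjusted p under 0.05. DESeq2 called 2 genes higher and 2 lower, and limma-voom called 0. ENSRNOG00000008356 had 1, 2, 4 and 1 counts in trained libraries, against 1 in every control library. It had 10, 3, 2 and 2 counts in banded libraries, against 327, 113, 256 and 286 in sham libraries. The high values were thus all in sham libraries, and the gene had too few counts to be tested for training alone. It was also the 1 gene called for banding against sham, with a log2 fold change of -5.80 (adjusted p = 0.0178 in edgeR). Omitting 1 library ended the call for 13 of the 16 libraries. The call was kept when the omitted library was banded replicate 1 or either of sham replicates 2 and 3. Without sham replicate 1 the genes with a lower effect at an unadjusted p under 0.05 numbered 437, and without sham replicate 4 158, against 243 with all libraries.

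None of the 4 IDs followed above passed that test. They were picked for their low p for training, and the difference of effects contains that same training effect. ENSRNOG00000013409 came nearest: it was at 22.5 ± 1.15 CPM in banded (SD, n = 4) and 23.5 ± 6.92 CPM in sham rats (SD, n = 3), and its training effect minus its banding effect was a log2 value of -0.96 with an SE of 0.23 (adjusted p = 0.980 in edgeR). ENSRNOG00000025110 was at 24.3 ± 5.25 CPM in banded (SD, n = 4) and 21.8 ± 3.26 CPM in sham rats (SD, n = 3), a difference of effects of 0.71 (SE 0.24). ENSRNOG00000009715 averaged 125 ± 20.5 CPM over the banded libraries and 123 ± 55.0 CPM over the sham samples, a difference of effects of -0.68 (SE 0.29). ENSRNOG00000004198 averaged 610 ± 170 CPM over the banded libraries and 516.5 ± 145 CPM over the sham samples, a difference of effects of 0.53 (SE 0.29). For these 3 the adjusted p was 1.00 in edgeR.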

How the data were processed

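Values in the count tables are the raw read counts that the authors deposited, whole numbers with a smallest stored count of 1, so that 0 and 1 reads cannot be told apart. Among the training counts, 2 rows without a gene ID repeated the column totals and were left out. The authors also deposited log2 RPM per gene as 1 value per group with a p-value adjusted for many tests (false discovery rate), and log2 fold changes between PCM1-positive and PCM1-negative nuclei. The sign of the last table was read from the values: over 12848 genes its fold change had a Spearman rho of -0.826 with the level in control replicate 1 relative to the table's mean level, so a positive value was taken as higher in PCM1-negative nuclei. Tools in the submitters' processing notes are edgeR, R 2.15.1, SAMtools and Bowtie, with no roles. Per the labels' protocols, nuclear RNA was reverse transcribed with random primers and amplified by PCR, and molecular identifiers are not mentioned, so counting intervals cover counting error only. The sources used here do not give the genome build, the counting rule or whether counting used strand, so overlapping genes and near copies are uncertain.

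Trained and control libraries were fitted with edgeR 4.0.16 by its quasi-likelihood test. Library sizes were scaled by TMM, low counts were removed by filterByExpr (10 as the smallest count, 15 as the smallest total) and p-values were adjusted by Benjamini-Hochberg over all genes tested, in R 4.3.3. SEs and intervals were derived from the F statistic. The test was also run on simulated counts with 200 changed genes. The outcome is not given here, so nothing is drawn from it. DESeq2 1.42.0, limma 3.58.1 (voom), other scaling factors, filters, a replicate block, a fit of all 16 libraries, 1 subtracted from every count and the omission of each library were alternatives. Adding the counts of sham replicates 2 and 3 took 1 off to keep the stored minimum. CPM use TMM-scaled library sizes of the genes tested. Shares were compared with scipy 1.17.1 in Python 3.11.15. The named IDs are the 2 of lowest p in each direction. The libraries, lists and tests were chosen with earlier results of these data known. Intended lists of gene symbols, cell type markers and mitochondrially encoded genes could not be matched (0 IDs), and lists from the table of fractions were used in their place. No sequence is shown, since no ID could be matched. The fifth control nuclear RNA sample and the chromatin files were not analysed here.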

Additional observations from a re-analysis of the deposited data

Results flagged for a closer look

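In ENSRNOG00000013409, control replicate 1 stood apart from the other control libraries: it was at 27.3 CPM and the other 3 at 32.8 CPM, so its gap to them was 0.990 of the range of the group. About 1 in 20 groups of 4 meets this limit by chance, and the library was the control closest to the trained ones. For ENSRNOG00000008356 the effect of training differed from that of banding by a log2 value of 6.64 with an SE of 0.94 (adjusted p = 0.0408 in edgeR). Its banding effect alone was a log2 value of -5.80 (adjusted p = 0.0178 in edgeR). Its counts in the trained and control libraries were 1 to 4 and 1, so the value depends on the prior count and on the sham libraries, at 113 to 327 counts.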

How the results depend on the processing

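The number of genes past the adjusted threshold for training was 0 in edgeR and 37 in DESeq2, 1 when only genes of at least 50 counts were kept, and between 0 and 1 with each library left out in turn. In the other 7 alternatives (limma-voom, both other scaling factors, no filter, the replicate block, all 16 libraries in one fit and 1 subtracted) it was 0. At an unadjusted p under 0.05 the genes higher in trained rats numbered 260 to 449 and those lower 251 to 472 over all 17 alternatives. With the replicate number as a block, 0 genes passed and 735 had an unadjusted p under 0.05 (761 without it). Same-numbered libraries were not treated as pairs in the main fit, since the labels state no pairing. Their deviations from the group means had correlations of -0.0386 to 0.126, against -0.200 to 0.163 for other pairs. Only 1 of 4 trained libraries correlated best with its own number. With 4 libraries per group these values cannot decide whether same-numbered libraries shared a litter, day or batch. For the fold changes of the 4 IDs no alternative turned the sign.

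With all 16 libraries in one fit, the PCM1-positive-enriched genes at an unadjusted p under 0.05 numbered 100 higher and 77 lower, and the PCM1-negative-enriched ones 28 and 40. With genes of at least 50 counts the last 2 numbers were 29 and 54, DESeq2 gave 62 lower, and leaving out 1 library gave 61 to 192 lower. The medians of both lists kept their signs, at 0.013 to 0.056 and -0.12 to -0.022. The share of counts from genes with over 8-fold enrichment in PCM1-negative nuclei differed by -0.16 to -0.024 percentage points with each library left out, and that of the 3067 genes with over 2-fold enrichment, a larger share of counts, by -0.19. In the authors' deposited table, 98 genes were left with a difference of at least 0.5 log2 RPM.

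For the difference of the training and banding effects, DESeq2 called 4 genes, and 0 were called by limma-voom, with genes of at least 50 counts, without both sham replicates 2 and 3, and with the replicate block and these replicates kept apart. The block gave 400 genes higher and 461 lower at an unadjusted p under 0.05. Leaving out each library gave 0 to 1 calls, 176 to 356 higher and 158 to 437 lower. The causes were not tested. Counts below about 10 per library limit what can be said of weakly expressed genes.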
